A study of Trichechus manatus latirostris with 11 samples.

Results

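T and cytotoxic lymphocyte genes were followed in RNA from buffy coats (the leukocyte and platelet fraction of spun blood) of Florida manatees (Trichechus manatus latirostris). The set was a fixed list of 44 gene symbols, and its members were the rows whose RefSeq symbol (TriManLat1.0) was on the list. In all, 21 of the 44 genes had a row, with 25 transcript records between them, out of 15298 records and 9641 different symbols in the table. Of the 25 records, 20 had a mean of at least 10 normalized counts over all libraries, and the other 5 had lower means.

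T cells carry a receptor made of antigen-binding chains and the CD3 and CD247 signalling chains. Binding of antigen on an MHC molecule, with CD4 or CD8 as coreceptor, lets the kinase LCK phosphorylate these chains, and adaptors such as LAT and LCP2 then pass the signal on to calcium, MAP kinase and NF-kB pathways. A second signal comes through CD28, and transcription factors set the fate of the cell: TCF7 and LEF1 mark naive and memory cells, TBX21 and EOMES the cytotoxic and interferon-producing ones, GATA3 helper cells of the type 2 response. Cytotoxic T cells and NK cells kill through perforin (PRF1) and granzymes.

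The 4 animals of the red tide group were treated for red tide illness at Lowry Park Zoo, some sampled on arrival and the others after a week of care. The 7 control animals comprised 2 from the Indian River Lagoon, 4 from Crystal River and 1 kept at Lowry Park Zoo while recovering from pneumonia, and every animal was labelled adult. The study's methods describe freezing for the red tide buffy coats and RNAlater for samples taken in the field, so place, date, storage and handling cannot be told apart from red tide illness. In bulk RNA of this kind, fewer cells of a type and less RNA per cell cannot be told apart either.

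The table held group means of normalized counts (reads divided by the size factor of each library), so a level below is an authors' mean without an error unless single libraries are given. One column averaged 4 libraries and the other 7, which matches the sizes of the red tide and the control group, but the columns do not name their groups. By group size only the 4-library mean can be that of the red tide animals. The direction of change in the study's own account goes with the opposite assignment, and this conflict is not settled here. The means are therefore called the 4-library and the 7-library mean. Ratios are on the log2 scale with the 4-library mean as numerator, and a record was called different at a fold of at least 2, which is a threshold of size and not a test. For weak genes the whole reads of single libraries could be worked back from the mean. The 4 libraries had size factors of 1.56, 1.03, 0.620 and 0.372, and single values from them are given in this order. The 7 libraries had size factors of 0.702 to 1.73. Total read numbers, and the animal behind each library, are not known from these values.

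Several members could not be described. No record carried the symbol CD3D, CD3E, CD3G or CD247, so the receptor complex itself was not analysed here. The same held for CD8A, CD8B, CD5, CD6, CD7 and CD96 among surface proteins, ZAP70, LCP2, TRAT1 and SIT1 among signalling proteins, TCF7, BCL11B, RUNX3 and IKZF3 among transcription factors, and GZMA, GZMB, KLRB1, NKG7 and GNLY among cytotoxic genes. The description thus rests on CD2, CD4, CD28, THEMIS, LAT and the other members with a row, without the defining CD3 markers of T cells. It does not measure the T cell content of the buffy coats.

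The lymphocyte genes did not share a direction. Of the 25 records, 11 were higher in the 4-library mean, and the median log2 ratio was -0.18, against 0.14 over all 15298 rows. The 7-library mean was at least 2-fold higher in 7 records (CD4, CD2, CD40LG, SLAMF1, GZMK, EOMES and IKZF1), where 10.4% of all rows were called in that direction. The 4-library mean was at least 2-fold higher in 3 records (1 each of SATB1, LEF1 and PRKCQ), where 23.9% of all rows were called, and the LEF1 record rested on 2 reads against 1. Much of that background lay in weak rows. With a mean of at least 10, 5 of 20 records were called higher in the 7-library mean (9.59% of 10225 rows) and 1 of 20 in the 4-library mean (12.3%). At a mean of at least 100 the counts were 4 of 12 (8.09% of 5238 rows) and 0 of 12 (8.76%). The surface proteins accounted for 4 of the 5 records with a mean of at least 10.

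**Figure D1:**
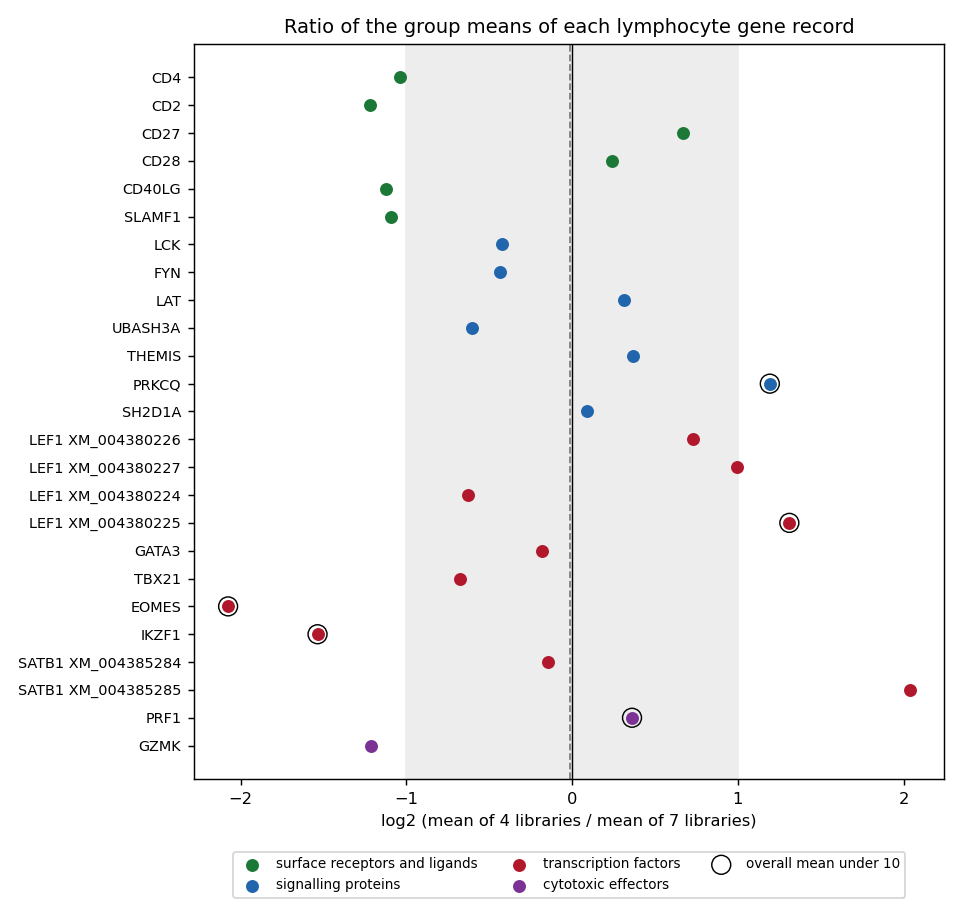
Horizontal axis, log2 of the 4-library mean divided by the 7-library mean of normalized counts, for each of the 25 records, coloured by role. Grey marks ratios under 2-fold, the dashed line the median of rows with a mean of at least 10, and rings mark records with an overall mean under 10. CD4, CD2, CD40LG, SLAMF1 and GZMK lie just left of the grey area, and the ringed records hold most of the wider ratios.

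The surface receptors divided into those lower in the 4-library mean by about the same factor and the costimulatory receptors CD27 and CD28, which were not. CD4 (XM_004387267.1), the coreceptor of helper T cells, had a 4-library mean of 145 and a 7-library mean of 297 normalized counts, 2.05-fold apart. CD2 (XM_004380433.1), an adhesion and costimulatory receptor of T and NK cells, had means of 123 and 285, 2.33-fold apart. CD40LG (XM_004380946.1), the helper T cell ligand that activates B cells, had means of 99.4 and 216, 2.18-fold apart. SLAMF1 (XM_004390221.1), a self-binding receptor on activated lymphocytes, had means of 20.3 and 43.3, 2.14-fold apart. The ratios of these 4 records stood between the 6.16th and the 8.79th percentile of all rows with a mean of at least 10. By the 2-fold threshold alone, any record called in this direction falls within the lowest 9.59% of these rows. CD27 (XM_004387262.1), a costimulatory receptor of naive and memory T cells, had a 4-library mean of 200.2 and a 7-library mean of 126, at the 79.9th percentile. CD28 (XM_004378300.1), the main costimulatory receptor, had means of 219 and 185.

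Single libraries showed the spread behind the 4-library means of CD40LG and SLAMF1. The spread behind their 7-library means is not known, because these means were too high for reads to be worked back. CD40LG had 114, 95.4, 88.6 and 99.5 normalized counts in the 4 libraries, a mean of 99.4 ± 10.8 (SD, n = 4), from 178, 98, 55 and 37 reads. Each of the 4 lay at about the same level and far below the 7-library mean of 216. Leaving out each library in turn, the log2 ratio of CD40LG stayed between -1.19 and -1.07. The coefficient of variation of CD40LG was 10.9%, against a median of 49.3% over the 5583 rows with recovered reads and a 4-library mean of at least 10. It was the lowest of the 9 member records of that kind, whose median was 54.0%.

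SLAMF1 had 14.8, 14.6, 3.22 and 48.4 normalized counts in the same order, 20.3 ± 19.5 (SD, n = 4). The library of size factor 0.372 alone lay above the 7-library mean of 43.3. Without it the log2 ratio of SLAMF1 moved from -1.10 to -1.99, and without any other library it came to between -0.97 and -0.74, short of 2-fold. For CD2 and CD4 the reads could not be fixed. In CD2, 6 combinations of whole reads fitted the 4-library mean, in CD4 8 did, and in every one of them at least 3 of the 4 libraries lay below the 7-library mean.

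The signalling proteins stayed closer to equal levels. LCK (XM_004372000.1), the kinase that starts receptor signalling, had a 4-library mean of 21.0 and a 7-library mean of 28.1, with 31.4, 11.7, 27.4 and 13.5 normalized counts in the 4 libraries. One of these lay above the 7-library mean and another just under it, and the spread of LCK among the 4 libraries was wider than the gap between the means. FYN (XM_004372474.1), a related kinase, had means of 126 and 170.0. LAT (XM_004386597.1), the membrane adaptor on which the signalling complex forms, had means of 103 and 82.6, with 109.7, 57.4, 114 and 129 in the 4 libraries. All but the library of size factor 1.03 lay above the 7-library mean of LAT.

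THEMIS (XM_004389474.1), which tunes receptor signals during thymic selection, had a 4-library mean of 327 and a 7-library mean of 253. UBASH3A (XM_004384811.1), a phosphatase family protein that dampens receptor signalling, had means of 159 and 241. SH2D1A (XM_004379595.1), the adaptor of SLAM family receptors, had means of 226 and 212. None of these 6 records was 2-fold different, their folds between the means running up to 1.52 in UBASH3A.

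PRKCQ (XM_004379707.1), the protein kinase C of T cells that leads to NF-kB, was weak, with a 4-library mean of 9.60 and a 7-library mean of 4.20. Its values in the 4 libraries were 1.28, 0, 4.84 and 32.3, and those of the 7 libraries ran from 1.73 over a median of 2.56 to 10.9. The group mean of PRKCQ came mainly from 12 of 17 reads in the library of size factor 0.372. The groups overlapped (exact two-sided permutation test over all 330 splits, p = 0.485), and without that library the log2 ratio went from 1.19 to -1.04.

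**Figure D2:**
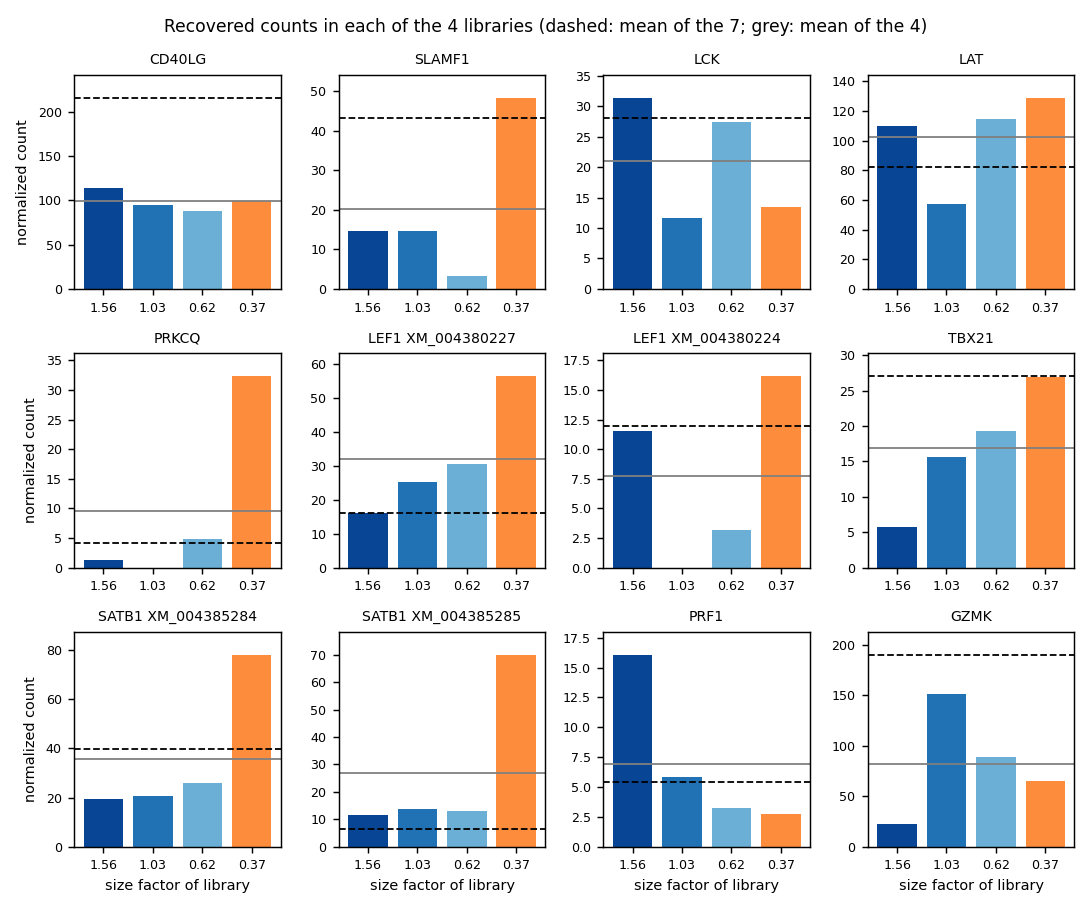
Normalized counts (vertical axes, each from 0) of 12 records in each of the 4 libraries, which are named by size factor. The grey line is the mean of the 4 and the dashed line the mean of the 7 libraries. CD40LG, TBX21 and GZMK lie under the dashed line in all 4 libraries, SATB1 XM_004385285 lies above it in all 4, and the orange library (0.372) is far above the others in both SATB1 records and PRKCQ.

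Over the 12 records with recovered reads and a 4-library mean of at least 5, each of the 4 libraries lay below the 7-library mean in 3 records (CD40LG, TBX21 and GZMK), and 19.2% of the 7146 rows of that kind did so. Each lay above it in 1 record of SATB1, and 14.8% of rows did so. The library of size factor 0.372, the smallest of the 4, stood out within the lymphocyte genes. It was the highest of the 4 in 6 of the 9 records with a 4-library mean of at least 10, against 1967 of all 5583 such rows, and its summed level over the 9 records was 586 normalized counts, where the other libraries had 345 to 411. B cell markers with recovered reads were also highest there, 202 in that library and 53.2 to 117 in the others over 4 records, while 4 neutrophil markers summed to 148 there and to 79.5 to 422 in the others. The part of this library's size factor and cell content in the values was not tested.

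Among transcription factors the direction varied between genes and between records of 1 gene. GATA3 (XM_004379699.1) had nearly equal means, 263 and 299. TBX21 (XM_004378000.1, T-bet), the regulator of interferon-producing and cytotoxic cells, had means of 16.9 and 27.0, with 5.77, 15.6, 19.3 and 26.9 normalized counts in the 4 libraries. The highest of these TBX21 values reached the 7-library mean almost exactly and the lowest was well under it.

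LEF1, a partner of beta-catenin in naive T cells, had 4 records, and these did not share a direction. XM_004380226.1, the strongest, had a 4-library mean of 207 and a 7-library mean of 125. XM_004380227.1 had means of 32.1 and 16.1, with 16.0, 25.3, 30.6 and 56.5 normalized counts in the 4 libraries, the lowest of them level with the 7-library mean. XM_004380224.1 pointed the other way, with means of 7.73 and 11.9 and with 11.5, 0, 3.22 and 16.1 in the 4 libraries. XM_004380225.1 rested on 2 reads in the 4 libraries and 1 read in the 7, so no fold is given. Summed over its records LEF1 had 247 normalized counts in the 4-library mean and 153 in the 7-library mean, a log2 ratio of 0.69.

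SATB1, a chromatin organizer needed for T cell development, showed, in 1 of its 2 records, the largest ratio of the set in favour of the 4-library mean. XM_004385285.1 had a 4-library mean of 27.0 ± 28.6 (SD, n = 4) and a 7-library mean of 6.56 ± 4.30 (SD, n = 7), 4.11-fold apart. The 4 libraries had 11.5, 13.6, 12.9 and 69.9 normalized counts, from 18, 14, 8 and 26 reads. The 7 libraries ran from 1.96 over a median of 7.68 to 13.6. All 4 values thus lay above the median of the 7, 3 of them close together at the upper end of the 7 libraries and 1 far above. The exact permutation p of this SATB1 record was 0.00909, and 0.152 with Benjamini-Hochberg adjustment over the 4769 rows whose reads were recovered in all 11 libraries. Without the library of size factor 0.372 its log2 ratio was 0.95 instead of 2.04, and the exact permutation p was 0.0417. The other record, XM_004385284.1, had means of 35.9 and 39.6, with 19.2, 20.4, 25.8 and 78.0 in the 4 libraries. Here 3 of the 4 lay below the 7-library mean, and without the library of size factor 0.372 the log2 ratio went from -0.14 to -0.86. Only uniquely mapped reads were counted, so how reads were split between records of LEF1 or SATB1 is uncertain.

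EOMES (XM_004377367.1) and IKZF1 (XM_004389149.1) were known from few reads. EOMES, a T-box factor of cytotoxic and NK cells, had 1.28, 0, 0 and 2.69 normalized counts in the 4 libraries, from 3 reads in all. The 7 libraries ran from 0 over a median of 3.61 to 8.53 and held 38 reads. The 7-library mean of EOMES was 4.22 times the 4-library mean, and the 95% Poisson interval of the 3 reads alone allows 1.44 to 20.4 times. The groups overlapped, with an exact permutation p of 0.103 (0.306 adjusted). IKZF1, the lymphoid zinc finger factor Ikaros, had 1.28, 1.95, 0 and 0 in the 4 libraries and 0.853 to 5.43 in the 7, with a median of 1.42. These IKZF1 values, 4 reads against 20, overlapped as well (exact permutation p = 0.139, 0.362 adjusted).

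**Figure D3:**
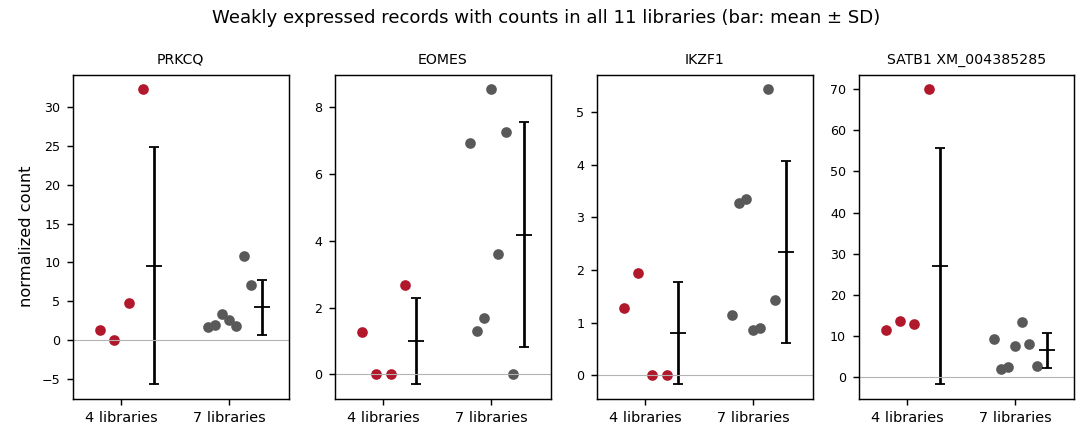
Normalized counts (vertical axes) of the 4 records with a 7-library mean above 1 whose reads were recovered in every library. Points are libraries and bars the mean ± SD of the 4 and of the 7. The groups overlap in all 4 records, and a single library at 69.9 and at 32.3 sets the 4-library mean of SATB1 and PRKCQ.

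In all, the read numbers of 5 member records were recovered for each of the 11 libraries, zeros included, and 1 of them (SATB1) had an unadjusted exact permutation p under 0.05, where 21.4% of the 4769 rows did. None had an adjusted p under 0.05. Over the 4769 rows 0 did, with 1019 under 0.05 unadjusted. The smallest p that 330 splits can give is 0.00303, and the smallest adjusted p was 0.106. The groups overlapped in all 5 member records, while 2.81% of the rows had no overlap with the 4 libraries higher and 0.168% with the 4 lower. The limit for working back reads was a mean of 110 in the 4 libraries and of 10 in the 7, so strong genes of the 7 libraries were left out more often.

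Only 2 cytotoxic effectors had a row, and they differed in level and ratio. GZMK (XM_004380503.1), a granzyme of memory T cells, had a 4-library mean of 81.6 ± 53.7 (SD, n = 4) and a 7-library mean of 190 (189.7), 2.32-fold apart. The 4 libraries had 22.5, 151, 88.6 and 64.6 normalized counts, from 35, 155, 55 and 24 reads. All 4 lay below the 7-library mean of GZMK, although they were widely spread. The log2 ratio of GZMK was -1.22. It was -0.90, short of 2-fold, when the library of size factor 1.56 was left out, and -1.70 when that of 1.03 was. PRF1 (XM_004391196.1), the pore-forming protein perforin, had means of 6.95 and 5.41. Its 4 libraries had 16.0, 5.84, 3.22 and 2.69, from 25, 6, 2 and 1 reads, and without the first of them the log2 ratio went from 0.36 to -0.47. For the 7 libraries 2 combinations of reads fitted the mean of PRF1, and the exact permutation p was 0.715 with 1 and 0.621 with the other.

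**Figure D4:**
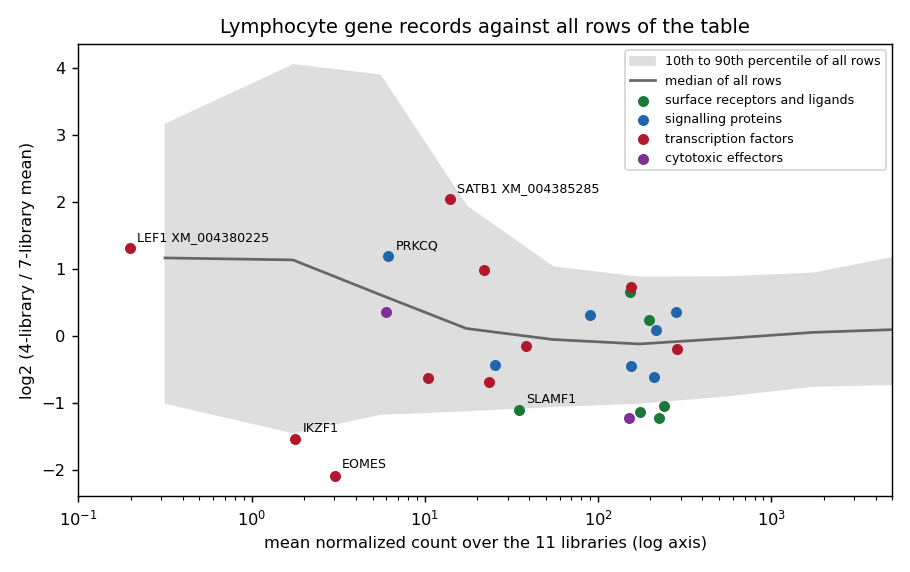
Vertical axis, log2 of the 4-library mean divided by the 7-library mean, against the mean over all 11 libraries (horizontal, log axis) for the 25 records, over the 10th to 90th percentile band and the median of all rows in 9 ranges of the mean. Between 100 and 300 normalized counts the band runs from -0.98 to 0.88, and GZMK, CD2, CD40LG and CD4 lie under its lower edge.

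Further genes of the T cell receptor pathway gave the same mixed picture. Of 30 such genes 20 had a row, with 24 records. The 7-library mean was at least 2-fold higher in 7 records and the 4-library mean in 1, where 10.4% and 23.9% of all rows were called. With a mean of at least 10 the counts were 2 and 1 of 18, near the 9.59% and 12.3% of all such rows. CSK, the kinase that holds LCK inactive, had a 4-library mean of 202 and a 7-library mean of 515. The actin regulator WAS had means of 235 and 400.4. On the other side, TRAF3IP3, an adaptor of developing lymphocytes, had means of 6264 and 3749. GRAP2, the adaptor that joins LAT to LCP2, again had records in opposite directions, 143 against 59.7 for XM_004373880.1 and 14.5 against 29.3 for XM_004373881.1.

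Of 12 costimulatory and checkpoint receptor genes 6 had a row. The 4-library mean was at least 2-fold higher in 4 of the 6 records (2 of the 3 with a mean of at least 10), where 23.9% of all rows and 12.3% of those with a mean of at least 10 were called. Weak rows as a whole leaned the same way, with a median log2 ratio of 0.62 at means of 3 to 10 and 1.14 at means of 1 to 3. The 6 records had a median of 1.26. CTLA4, the inhibitory receptor that competes with CD28, had means of 302 and 119. PDCD1, the receptor PD-1, had means of 24.1 and 8.44, with 16.0, 34.1, 35.5 and 10.8 normalized counts in the 4 libraries. Each of these lay above the 7-library mean of PDCD1. TIGIT, an inhibitory receptor of T and NK cells, went the other way with 11.9 and 18.8.

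Receptors for homing and growth were mostly alike in both means. The median log2 ratio of the 6 records, from 6 of 12 genes, was -0.06. IL7R, which keeps naive and memory T cells alive, had means of 3424 and 3255, and CCR7, which guides them into lymph nodes, 969 and 928. The common cytokine receptor chain IL2RG had means of 250.1 and 285, and the egress receptor S1PR1 1742 and 2134. CCR4, a chemokine receptor of helper and regulatory T cells, was the 1 record called, with 459 in the 4-library and 136 in the 7-library mean. Of all rows with a mean of at least 10, as all 6 of these records had, 12.3% were called in that direction.

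Further transcription factors covered both directions, with 3 of 14 records called on either side and a median of -0.19 (13 of 22 genes). Of all rows, 23.9% were called higher in the 4-library mean and 10.4% in the 7-library mean. With a mean of at least 10, the counts were 2 and 1 of 10, against 12.3% and 9.59% of such rows. The median of those 10 records was 0.14. ID2, an inhibitor of E proteins used by effector T and NK cells, had means of 11363 and 2253, and ID3, its partner in naive and memory cells, 342 and 157. ETS1, a lymphoid factor, had means of 3285 and 2230. BATF, an AP-1 factor of effector T cells, had 17.4 in the 4-library and 134 in the 7-library mean, with 18.6, 22.4, 1.61 and 26.9 in the 4 libraries. PRDM1 had means of 18.6 and 30.3, and BACH2, which preserves quiescence, 162 and 231.

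Of 30 further cytotoxic and NK cell genes 15 had a row, with 16 records, 3 called in each direction and a median log2 ratio of 0.16. Among all rows, 23.9% were called higher in the 4-library mean and 10.4% in the 7-library mean. With a mean of at least 10 it was 2 of 12 records in each direction, against 12.3% and 9.59% of such rows. SH2D1B, an NK cell adaptor related to SH2D1A, had means of 47.0 and 165, with 60.9, 43.8, 24.2 and 59.2 in the 4 libraries, all below the 7-library mean. LYST, which shapes lytic granules and is used by neutrophils too, had means of 7531 and 20291, and GZMM 12.2 and 20.3. RAB27A, which docks granules at the membrane, had means of 929.6 and 555, and TNF 102 and 39.6. IFNG, the main cytokine of type 1 T cells and NK cells, had 24.4, 13.6, 14.5 and 199 normalized counts in the 4 libraries and from 0 to 4.62 in the 7, from 13 reads. The groups of IFNG did not overlap, the 4 libraries being the higher, as in 2.81% of the 4769 rows recovered in all 11 libraries. The exact permutation p of IFNG was 0.00303, the smallest possible (0.106 adjusted). IFNG was named for the highest ratio of this list, so its p-value is no independent support.

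Markers of other blood cells differed between the means beside these values. Over all rows, 10.4% were called higher in the 7-library mean and 23.9% in the 4-library mean. Of 20 neutrophil markers 11 had a row, 9 were at least 2-fold higher in the 7-library mean and none in the 4-library mean, and the median log2 ratio was -2.41. Their summed level was 2881 in the 4-library and 13092 in the 7-library mean, led by the calcium-binding protein S100A9 with 835 and 5429. Of 13 platelet markers 8 had a row, and 6 of these were called in favour of the 4-library mean (median 1.74). They summed to 15405 and 4522, and TUBB1, the platelet tubulin, was the strongest with 6392 and 1422. B cell markers (8 of 16 genes) had a median of -0.39 and sums of 1089.6 and 1195. Of their 8 records 1 was called, higher in the 7-library mean, which is near the share of all rows. MS4A1, the B cell antigen CD20, had means of 370.1 and 415. Monocyte markers (8 of 15 genes, 9 records) had a median of -0.14 and sums of 2691 and 3474, with LYZ at 1243 and 1839. Erythroid markers (3 of 13 genes) had sums of 186 and 487, nearly all from ALAS2 with 168 and 467. The lymphocyte genes summed to 2456 and 2870. Levels are reads scaled by the size factor of each library and not cell numbers, and the part of these other cells in the lymphocyte values was not tested.

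**Figure D5:**
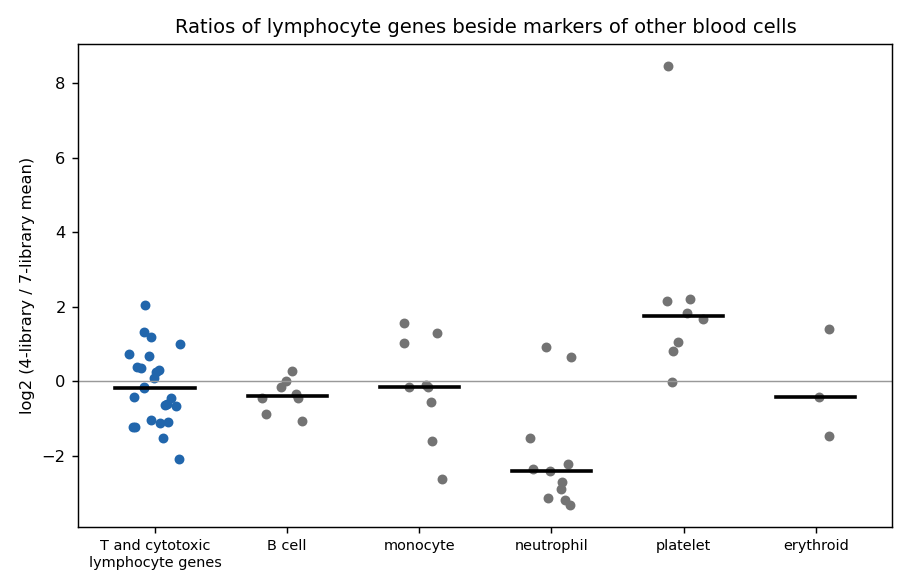
Vertical axis, log2 of the 4-library mean divided by the 7-library mean, for every record of the lymphocyte genes and of 5 marker lists. Points are records and bars medians. The lymphocyte genes (median -0.18) and B cell markers (-0.39) lie around 0, neutrophil markers lie mostly below it (-2.41) and platelet markers above it (1.74).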

How the data were processed

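The authors trimmed with Cutadapt and aligned with Bowtie2 against TriManLat1.0. They discarded duplicates and reads that mapped to several places, and compared read counts per transcript record by DESeq within DEB. Which program counted the reads is not given in the sources used here. For this report the deposited table holds a signal: the authors' mean of counts divided by size factors, over all libraries and in both groups. Columns of the authors' own comparison (fold change as a ratio and as log2, a p-value with and without adjustment) were not used. No column of a single sample was present, and the number left unused was 0.

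Group sizes were read from the overall mean, which equalled 4 parts of the first and 7 parts of the second mean of 11 (largest relative deviation 3.3e-09). Because no sample column exists, no count model was run. The step that a single read adds to the mean was taken from low means for each library and refined by least squares. Whole reads were then sought for 4-library means up to 110 and 7-library means up to 10, allowing for rounding of the last deposited digit, and kept where 1 combination fitted (10240 of 10363 and 4784 of 5439 rows). For CD4, CD2, FYN and UBASH3A, above that limit, every fitting combination of the 4 libraries was listed. On simulated data 97.6% and 73.8% of searched genes gave 1 combination, which was the simulated one in 100% of cases. In that simulation the permutation test gave p under 0.05 in 61.3% of genes changed 4-fold and 5.18% of unchanged ones. The adjusted p was under 0.05 in 0 of the 1372 genes tested there, 155 of which were changed 4-fold.

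The permutation test compared mean normalized counts and counted splits with an absolute difference at least as large. A p-value is thus the share of splits of these libraries with a difference that large, and Poisson intervals cover counting error only. Symbols were matched by transcript record without version (10080 rows). The members, lists and naming rule were chosen with earlier results of these data known. Every member with a row was named, with the 3 highest and 3 lowest ratios of each further list and the strongest record of each marker list, at a mean of at least 10, except that some genes of the further lists are not reported here. Alternatives concerned the fold (1.5 and 3), centring, a pseudocount of 1, a minimum mean of 10, 1 record per symbol, the test statistic and left-out libraries. Summing the records of a symbol was added after the data had been seen. Python 3.11.15, numpy 2.4.6, pandas 2.3.3, scipy 1.17.1 and matplotlib 3.10.9 were used.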

Additional observations from a re-analysis of the deposited data

Results flagged for a closer look

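Dixon's criterion at 95% is met by about 1 in 20 groups of normally distributed values, a rate that need not hold for few reads. By it, 5 of 20 groups of libraries with recovered reads of a member record had 1 library far from the others. The library of size factor 0.372 was the one in 3 of them, with 69.9 normalized counts in SATB1 XM_004385285.1, 78.0 in SATB1 XM_004385284.1 and 32.3 in PRKCQ, all as the highest of the 4 libraries. The other cases were LEF1 XM_004380225.1, where a single library held all reads of its group, 1.28 normalized counts in the 4 libraries and 0.905 in the 7. A group with reads in a single library always meets this criterion.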

How the results depend on the processing

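The count of records at least 2-fold higher in the 4-library mean (3) was 6 at a fold of 1.5, and it was 1 at a fold of 3, with a minimum mean of 10, with 1 record per symbol and with the records of a symbol summed. The count for the 7-library mean (7) was 1 at a fold of 3. When 1 of the 4 libraries was dropped from the records with known reads, the counts ran from 1 to 4 and from 6 to 9, the 1 and the 9 being without the library of size factor 0.372. The median log2 ratio lay between -0.42 and -0.15 under the alternatives. The log2 ratio of PRKCQ turned from 1.19 to -1.04 when the library of size factor 0.372 was left out, and reached 1.61 with another left out. Its exact permutation p was 0.788 by mean rank, with the direction turned, and 0.175 to 0.614 with 1 of the 11 libraries left out. The exact permutation p of LEF1 XM_004380225.1 ran from 0.40 to 1 in the same way, with the direction turned without its only 4-library reads. For SATB1 XM_004385285.1 it ran from 0.00476 to 0.0417 and was 0.0242 by mean rank. No paired analysis was possible because the columns carry no replicate numbers. Few reads limit the weak records most. The spread over the 4 libraries is not known for members with a 4-library mean above 110, nor that over the 7 for members with a 7-library mean above 10.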
